A study of Mus musculus with 7 samples.

Results

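Open chromatin of mouse embryonic fibroblasts (MEFs) before induction was compared with that of the same kind of culture after 9 days of doxycycline, by the overlap of the authors' ATAC-seq peaks. The day 0 library held 61241 peaks and the day 9 library 33007, together 94248 of the 293147 peaks of the 7 libraries of the series. A day 0 peak without a base in common with a day 9 peak was called lost, a day 9 peak without a base in common with a day 0 peak was called gained, and the others were called kept. Both libraries came from MEFs of a cross between 2 strains. One, of B6;129S4 background, carries the allele Col1a1tm1(tetO-Pou5f1,-Klf4,-Sox2,-Myc)Hoch, in which a tetO promoter drives the OKSM factors (Oct4, Klf4, Sox2 and c-Myc) from the *Col1a1* locus. The other, of B6.Cg background, carries Gt(ROSA)26Sortm1(rtTA*M2)Jae, which gives the activator that turns this promoter on in doxycycline. The day 0 cells had no doxycycline, and the day 9 cells had it at 2 µg/mL for 9 days. Per the paper's methods, it was given in MEF medium with more serum than that of MEF culture. ESC medium with the factor LIF took the place of that medium once early colonies appeared, which the paper puts shortly before day 9. The day 0 and day 9 libraries thus differ in medium as well as in doxycycline, whose parts cannot be told apart. Libraries of days 1, 2, 3 and 6 at the same dose and of untreated Bruce-4 embryonic stem cells (ESCs) were set beside them, and the ESC library carries the genotype of the MEFs in its label. Each time-point has 1 library, so no test between days was possible, and the exact (Clopper-Pearson) 95% confidence intervals given below cover counting error only.

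ATAC-seq reads where the Tn5 transposase can cut, which is at promoters, enhancers and other stretches of DNA with few nucleosomes. In fibroblasts many enhancers carry sites of AP-1, the dimers of FOS and JUN proteins, together with TEAD and RUNX sites. Reprogramming to pluripotency passes through the silencing of such enhancers, a mesenchymal-to-epithelial transition and the opening of enhancers read by Oct4, Sox2 and Klf4. A culture at day 9 is a mixture of cells at different stages, and in such bulk libraries fewer cells with an open site and a site less open in each cell cannot be told apart.

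The reference sequences of 6 peaks show the letters on which the comparison of motifs turned. They are the central 200 bp, read from the RefSeq assembly GRCm38.p6, whose chromosomes are those of mm10. Lost peaks without a peak in any later library are shown first, from genes of the fibroblast, extracellular matrix, contractile and TGF-beta lists. Of 237 such peaks these 3 held the most AP-1 matches, 2 each, and were the widest with that number. Capitals mark the AP-1 motif TGANTCA, whose reverse complement has the same form.
Runx1, chr16:92620816-92621015, plus strand: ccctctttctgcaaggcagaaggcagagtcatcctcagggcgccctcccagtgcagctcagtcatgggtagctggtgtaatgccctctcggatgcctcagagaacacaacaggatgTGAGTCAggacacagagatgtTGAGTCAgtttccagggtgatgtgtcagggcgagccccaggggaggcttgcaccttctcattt
Srf, chr17:46574580-46574779, plus strand: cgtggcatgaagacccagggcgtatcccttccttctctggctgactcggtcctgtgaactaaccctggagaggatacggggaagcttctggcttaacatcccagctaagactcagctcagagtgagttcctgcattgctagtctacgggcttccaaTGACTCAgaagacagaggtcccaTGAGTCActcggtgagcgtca
Wwtr1, chr3:57501719-57501918, plus strand: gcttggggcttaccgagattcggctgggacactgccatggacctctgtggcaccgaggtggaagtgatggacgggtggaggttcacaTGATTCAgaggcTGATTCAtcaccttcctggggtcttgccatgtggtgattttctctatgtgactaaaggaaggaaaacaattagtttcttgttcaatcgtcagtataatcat
The *Runx1* peak (chr16:92620606-92621226) lies in an intron, 74579 bp from the nearest TSS of the gene, which encodes a Runt-domain transcription factor. The *Srf* peak (chr17:46574378-46574981) lies upstream of the gene for serum response factor, 18505 bp from its TSS, in an intron of another gene. The *Wwtr1* peak (chr3:57501517-57502120) lies over an annotated exon, 74009 bp from the TSS of the gene for the YAP relative TAZ. The 2 matches near *Runx1* and the 2 near *Srf* have G or C in the middle, and those near *Wwtr1* have A or T.

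The gained peaks shown next had an ESC peak and lay near genes of the pluripotency or epithelial lists. Of 17 such peaks these 3 held the most matches in all to the POU octamer ATGCAAAT, the SOX motif CATTGTT, the KLF motif GGGNGTGG and the ESRRB motif CAAGGTCA, on either strand. Capitals mark those matches.
L1td1, chr4:98728070-98728269, plus strand: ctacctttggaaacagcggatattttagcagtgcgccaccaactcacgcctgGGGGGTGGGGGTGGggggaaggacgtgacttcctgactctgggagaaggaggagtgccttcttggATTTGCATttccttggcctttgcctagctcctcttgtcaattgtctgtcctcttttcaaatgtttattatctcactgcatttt
Cldn3, chr5:134985904-134986103, plus strand: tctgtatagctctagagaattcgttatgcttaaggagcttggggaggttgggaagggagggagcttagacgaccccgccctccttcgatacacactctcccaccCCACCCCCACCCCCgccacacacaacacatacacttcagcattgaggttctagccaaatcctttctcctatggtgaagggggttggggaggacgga
Elf3, chr1:135217746-135217945, plus strand: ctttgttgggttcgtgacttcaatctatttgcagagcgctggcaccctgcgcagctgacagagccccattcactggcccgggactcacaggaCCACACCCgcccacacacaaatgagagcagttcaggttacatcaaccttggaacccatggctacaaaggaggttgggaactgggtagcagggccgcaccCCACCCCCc
The *L1td1* window held 1 octamer and 2 KLF matches that overlap each other, and the *Cldn3* window held 2 KLF matches that overlap. The *Elf3* window held 2 KLF matches apart from each other. The *L1td1* peak (chr4:98727879-98728461) lies in an intron, 1377 bp from the TSS of this gene for an RNA-binding protein of ESCs. The *Cldn3* peak (chr5:134985616-134986391) covers the TSS of the gene for claudin 3, a tight junction protein. The *Elf3* peak (chr1:135217609-135218083) lies between genes, 40592 bp from the TSS of this gene for an epithelial ETS factor. Each of the 3 gained peaks was present on days 1, 2, 3, 6 and 9 and in ESCs, while each of the 3 lost peaks was present on day 0 alone.

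Over 9 days of induction, 40301 of the 61241 day 0 peaks were lost (65.8%, 95% CI 65.4 to 66.2) and 20940 were kept. On the other side, 11598 of the 33007 day 9 peaks were gained (35.1%, 34.6 to 35.7) and 21409 were kept. There were 3.47 lost peaks for each gained peak. In covered length the day 0 peaks spanned 26.2 Mb and the day 9 peaks 14.1 Mb, of which 9.23 Mb were shared, which is 35.2% of the day 0 length and 65.3% of the day 9 length. These shares depend on how many peaks each list holds. When the day 0 list was restricted to its 33007 widest peaks, 49.0% of them were lost (16163 peaks) and 45.6% of the day 9 peaks were gained (15064 peaks), so that both shares then lay within 4 points of each other. Among peaks at least 300 bp wide in both lists, 21171 were lost and 6154 gained, and 18305 were gained when the overlap had to span 50% of both peaks. The files hold no read depth, and the part of signal strength in the shorter day 9 list was not tested.

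Lost and gained peaks were narrow. The median width was 264 bp among lost and 264 bp among gained peaks, against 603 bp among kept day 0 peaks and 496 bp among kept day 9 peaks. Of day 0 peaks at the smallest width of 200 bp, 90.4% were lost, and of those at least 800 bp wide 7.13% were lost. For gained peaks the share fell from 58.3% at 200 bp to 4.71% at 800 bp and over. Without overlapping one, 5.76% of lost peaks had a day 9 peak within 500 bp, and 11.1% of gained peaks had a day 0 peak within 500 bp, where the neighbour could be of any class.

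**Figure D1:**
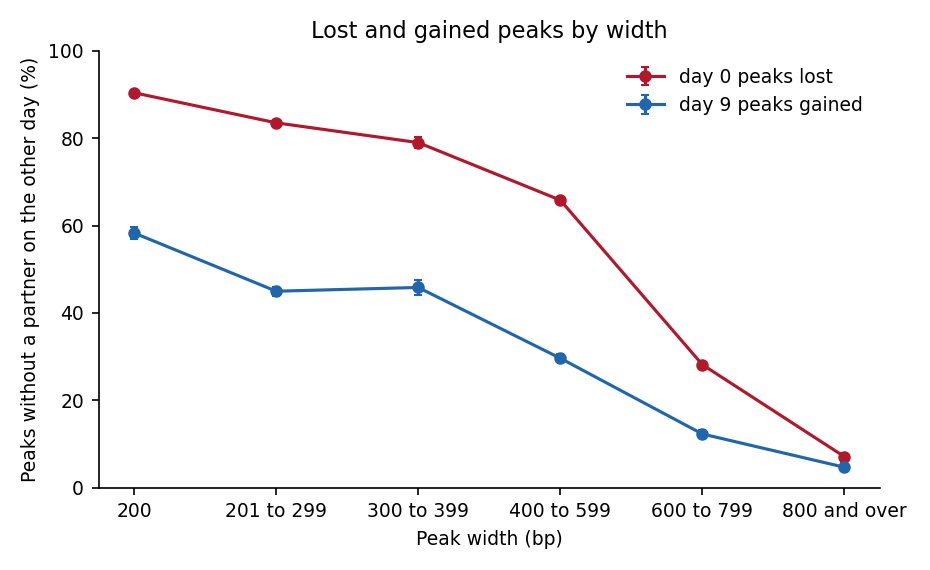
Share of day 0 peaks that were lost (red) and of day 9 peaks that were gained (blue), in percent, by peak width in bp, with exact 95% intervals for counting error. The share of lost peaks was 79.0% at 300 to 399 bp and 28.2% at 600 to 799 bp, and in each class of width a larger share of day 0 peaks was lost than of day 9 peaks was gained.

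The widest lost peak spanned 1367 bp (chr16:21318150-21319516), between genes and 104285 bp from the TSS of *Vps8*, and was present on day 0 alone. The next, of 1283 bp (chr15:62286560-62287842), lay 299779 bp from the TSS of *Myc* and was present on days 0, 1 and 6. The third, of 1205 bp (chr11:76587232-76588436), lay in an intron of *Abr* and was present on days 0 and 3. The widest gained peak spanned 1195 bp in an intron of *Shroom3* (chr5:92745655-92746849), the gene for an actin-binding protein of epithelial cell shape. A gained peak of 1179 bp (chr15:25753822-25755000) lay 1432 bp from the nearest TSS of the unconventional myosin gene *Myo10*, and one of 1164 bp (chr10:69156681-69157844) in an intron of *Rhobtb1*. Each of these 3 gained peaks was present from day 1 to day 9, and that at *Myo10* also in ESCs.

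Few of the lost peaks had a peak in the ESC list, which was the shortest of the 7 with 27074 peaks. That list held promoter peaks for 2 of the 7 genes fixed as markers of ESCs, given below. In ESCs, 96.0% of the lost peaks (38693, 95.8 to 96.2) had no peak, and 1608 had one. Among kept day 0 peaks 53.7% had an ESC peak, and among all day 0 peaks 21.0% had one. A larger part of the gained peaks were ESC peaks. Of the gained peaks 1986 had an ESC peak (17.1%, 16.4 to 17.8), against 53.2% of kept day 9 peaks and 40.5% of all day 9 peaks. The gained peaks without an ESC peak numbered 9612. The ESC share of gained peaks was higher among wide ones, with 11.5% at 200 bp and 43.0% at 800 bp and over. For lost peaks the same bins had 2.46% and 12.5% with an ESC peak.

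Most lost peaks were already absent on day 1 and stayed so. Of the lost peaks, 25277 (62.7%) had no peak on any of days 1, 2, 3 and 6, and 61.9% had none in any of the other 6 libraries. A peak on day 6 was found for 18.7%, of which 1811 (4.49% of the lost peaks) were present on each of days 1, 2, 3 and 6 and 5730 (14.2%) were absent on at least 1 of days 1, 2 and 3. A further 10.6% were last present on day 3. Of the lost peaks present on each of the 4 days 14.5% had an ESC peak, compared with 1.35% of those absent on each of them. Of the gained peaks, 3762 (32.4%) were present on each of days 1, 2, 3 and 6, 20.1% first appeared on day 1 with a gap later, and 2089 were present on none of the 4 days. An ESC peak was found for 20.2% of the gained peaks present on each of the 4 days and for 13.2% of those present on none. Per library, gained peaks were present at 52.6% for day 1, 45.6% for day 2, 65.0% for day 3 and 66.6% for day 6, and lost peaks at 22.5%, 10.9%, 22.0% and 18.7%. Day 2 was the lowest in both classes, and also among kept day 0 peaks (78.8%, against 87.2% to 91.6% on the other days), and its list held 33174 peaks against 44855 to 48087 on days 1, 3 and 6.

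**Figure D2:**
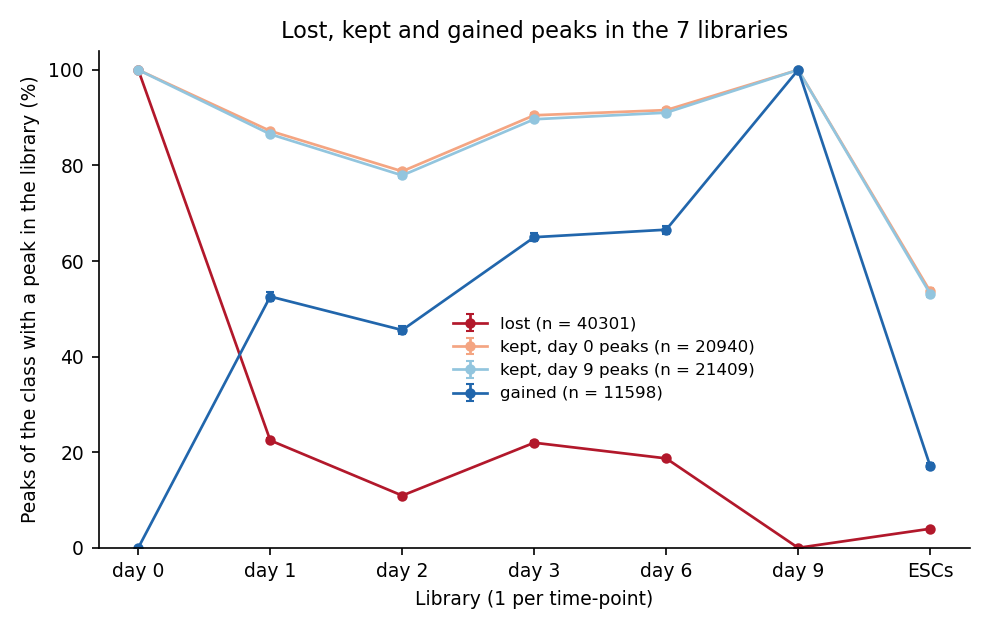
Share of the lost, kept and gained peaks, in percent, that overlapped a peak in each of the 7 libraries, with exact 95% intervals that are mostly smaller than the points. The values of 0 and 100% on days 0 and 9 follow from how the classes were defined, and in ESCs the kept peaks stood at 53.7% and 53.2%, the gained at 17.1% and the lost at 3.99%.

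Against the same day 0 library, the day 0 peaks without a partner made up 55.4% for day 1, 65.9% for day 2, 54.6% for day 3, 56.4% for day 6, 65.8% for day 9 and 79.0% for ESCs. Peaks absent on day 0 made up 39.0% of the day 1, 34.5% of the day 2, 41.5% of the day 3, 39.6% of the day 6 and 35.1% of the day 9 list. Of these new peaks, an ESC peak overlapped 9.67% for day 1, 13.5% for day 2, 11.5% for day 3, 13.3% for day 6 and 17.1% for day 9. In number, the 1986 new day 9 peaks with an ESC peak were fewer than the 2364 of day 6 and the 2301 of day 3. The list of new peaks was shorter on day 9 (11598) than on day 6 (17759). Day 2 had 11429 new peaks, close to day 9, and 1541 of them had an ESC peak. These comparisons share the day 0 library and are not independent of each other.

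Lost and gained peaks lay at similar positions. Within 1000 bp of a GENCODE M21 protein-coding TSS lay 8.74% of lost and 7.90% of gained peaks, against 51.6% of kept day 0 peaks and 16.1% of the 104346 merged regions of the 7 libraries. Introns held 41.8% of lost and 43.6% of gained peaks, and 46.1% and 44.9% lay between genes. The median distance to the nearest TSS was 28052.5 bp for lost and 28296 bp for gained peaks. The median GC content of the central windows was 47% in both, against 58% in kept day 0 peaks. Read the other way, 24.6% of the day 0 peaks near a TSS were lost, against 79.6% of those in introns and 77.7% of those between genes, and 7.60% of the day 9 peaks near a TSS were gained, against 53.7% and 49.2%. Windows with over 50% of their bases in repeats were more frequent among gained (9.07%) than among lost peaks (5.56%), and 9.84% of all regions had that many. The share of lost peaks ranged from 59.2% on chromosome 7 to 70.7% on chromosome 18 and that of gained peaks from 29.7% on chromosome 19 to 40.2% on chromosome 18, leaving out chromosome Y.

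Lost and gained peaks differed in their motifs. The AP-1 motif TGANTCA was found in the central 200 bp of 23.2% of lost peaks and 8.88% of gained peaks, with 16.0% in the regions of all 7 libraries. The difference of 14.3 percentage points (95% CI 13.6 to 14.9) was 15.2 points among peaks over 1000 bp from a TSS, 8.97 points in central windows of 100 bp and 31.7 points when the day 0 list was restricted to its widest peaks. That restriction set day 0 peaks of 323 bp and over against day 9 peaks of all widths. Among distal peaks, those over 1000 bp from a TSS, kept day 0 peaks held the motif in 22.1%. This was close to the 24.4% of lost peaks, and kept day 9 peaks held it in 18.2%. The distal shares differed with peak width. At widths of 300 bp and over, the motif stood in 41.5% of lost, 28.2% of kept day 0, 23.5% of kept day 9 and 11.0% of gained peaks. Under 300 bp the values were 11.7%, 6.78%, 11.8% and 7.86%. With G or C in the middle, the form that AP-1 dimers bind best, TGAGTCA stood in 19.2% of distal lost and 5.91% of distal gained peaks, with 14.0% in all distal regions. With A or T in the middle, TGAATCA stood in 6.80% and 3.52%, with 5.15% in all.

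The octamer ATGCAAAT, read by POU factors such as Oct4, went the other way. It stood in 0.909% of lost and 4.42% of gained peaks, with 2.28% in all regions. Among distal peaks it stood in 1.48% of kept day 0 peaks, 1.92% of kept day 9 peaks and 4.52% of gained peaks. Gained peaks of at least 600 bp held it in 8.63% and lost peaks of that width in 0.685%. The longer composite site of Oct4 with Sox2, matched in its strict form, was found in 17 gained windows (0.147%), against 0.0174% of lost and 0.0662% of all windows. The SOX motif CATTGTT stood in 5.29% of gained and 3.14% of lost peaks, with 3.74% in all regions. The KLF motif GGGNGTGG stood in 13.0% of gained and 6.63% of lost peaks, with 10.2% in all regions, and KLF motifs were also frequent in kept day 0 peaks (13.3%). In each of 4 classes of GC content the AP-1 share was higher in distal lost peaks and the octamer and KLF shares higher in distal gained peaks. At 40% to 50% GC, AP-1 matches stood in 26.0% of distal lost and 10.4% of distal gained peaks, the octamer in 0.922% and 5.11%, and KLF matches in 4.54% and 12.0%.

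Not every motif differed in this way. The TEAD motif GGAATG, read by the partners of YAP and TAZ, stood in 16.4% of distal lost and 16.8% of distal gained peaks, and the interval of the difference (-1.16 to 0.452 points) included 0. All distal regions held it in 16.4%. The RUNX motif TGTGGTT stood in 6.80% and 4.86% of distal lost and gained peaks, with an interval of the difference of 1.47 to 2.43 points. The CTCF core AGGGGGC was most frequent in kept distal peaks (5.68% on day 0) and stood at 2.45% in lost and 2.87% in gained ones. A match is a run of letters and not a bound site, and windows that share a peak list are not replicates.

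**Figure D3:**
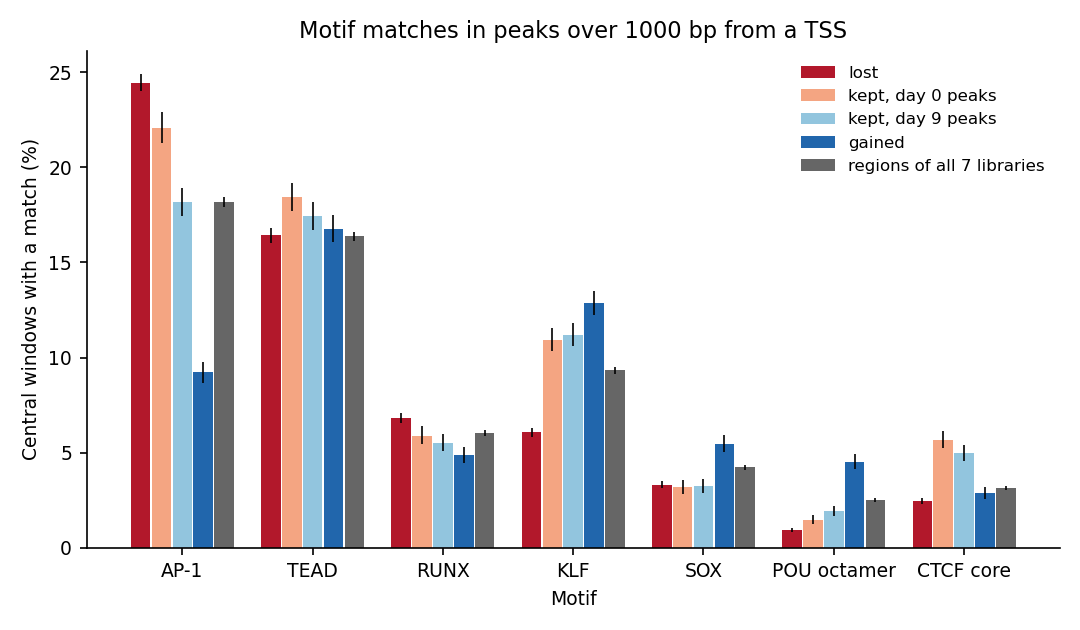
Share of central 200 bp windows, in percent, with at least 1 match to each of 7 motifs, in lost, kept and gained peaks over 1000 bp from a TSS and in the regions of all 7 libraries, with exact 95% intervals for counting error. AP-1 matches stood at 24.4% in lost and 9.22% in gained peaks, the octamer at 0.928% and 4.52%, and TEAD matches at 16.4% and 16.8%.

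Among distal gained peaks, KLF matches were more frequent in those with an ESC peak (15.6%, 13.9 to 17.4) than in those without one (12.3%, 11.7 to 13.0). The intervals overlapped for the octamer (5.61% with and 4.31% without an ESC peak), SOX matches (6.25% and 5.31%), AP-1 matches (8.94% and 9.27%) and the Oct4-Sox2 composite (0.351%, 6 peaks, and 0.123%, 11 peaks). By time, distal gained peaks present on each of days 1, 2, 3 and 6 held the octamer in 6.10% and SOX matches in 7.44%, while those present on none of these days held them in 2.64% and 3.53%. Of the distal lost peaks, the 1468 present on each of the 4 days held AP-1 matches in 40.7%, and the 23896 present on none of them in 22.0%. Width differs between these classes, since the 24937 lost peaks found in no other library had a median width of 245 bp and the other lost peaks 336 bp.

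Most promoters with a day 0 peak had one on day 9. A promoter peak, within 1000 bp of any TSS of the gene, was present on day 0 for 12755 of 21853 protein-coding genes and was lost for 1658 of them (13.0%). Of the 9098 genes without one, 336 gained a promoter peak (3.69%). In ESCs, 30.3% of the genes with a lost promoter peak, 87.1% of those with a kept one and 39.3% of those with a gained one had a promoter peak. A promoter with such a peak is called open below, whether or not the peaks of different libraries overlap each other. Of the 79 ribosomal protein genes with a day 0 promoter peak, 1 lost it. Peaks were also assigned to the nearest TSS within 100 kb, and of the assigned peaks 62.2% of day 0 were lost and 31.5% of day 9 were gained, the values against which each list below is read.

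Fibroblast transcription factors lost promoter peaks and assigned peaks at shares whose intervals included those over all protein-coding genes. Of 22 transcription factors of fibroblasts, 19 had a day 0 promoter peak and 4 lost it (21.1%, 6.05 to 45.6), namely *Twist2*, *Prrx2*, *Foxf1* and *Foxc2*. The *Twist2* promoter, of a basic helix-loop-helix repressor of mesenchyme, was open on days 0, 1, 2, 3 and 6 and had no peak on day 9 or in ESCs. Those of the homeobox gene *Prrx2* and the forkhead gene *Foxc2* were open on day 0 alone, and that of *Foxf1* on days 0, 1 and 3. Over the list, 99 of 143 assigned day 0 peaks were lost (69.2%, 61.0 to 76.7), and 19 of 65 day 9 peaks were gained (29.2%). None of the 99 lost peaks had an ESC peak, against 4.73% of the lost peaks assigned over all protein-coding genes. *Runx1* lost 18 of 22 assigned day 0 peaks and gained 7, with a kept promoter in each library. *Zeb1*, a repressor of epithelial genes, lost 10 of 11 assigned day 0 peaks and gained none, and its promoter had a peak on days 0 and 9 and in no other library. Among peaks at least 300 bp wide, 7 promoters of this list were lost in place of 4. The added promoters, *Zeb1* and *Osr1* among them, had a day 9 peak, but only one under 300 bp wide. The share over all protein-coding genes at that width is not given here. *Tcf4* lost 10 of 17 assigned day 0 peaks and gained 3, and *Osr1* lost 7 of 8 and gained none.

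Genes of the extracellular matrix lost the largest share among the fibroblast lists with over 100 day 0 peaks. Of 20 day 0 promoter peaks 4 were lost (20.0%, 5.73 to 43.7, an interval that includes the 13.0% over all protein-coding genes), and none was gained. The lost ones were those of the collagen genes *Col3a1*, *Col6a1* and *Col6a3* and of the matrix metalloproteinase gene *Mmp2*. The *Col3a1* and *Col6a3* promoters were open on days 0 and 3, that of *Col6a1* on days 0 and 6, and that of *Mmp2* on days 0, 2, 3 and 6. Of 180 assigned day 0 peaks 131 were lost (72.8%, 65.7 to 79.1), and 24 of 73 day 9 peaks were gained (32.9%). *Col5a1* lost 16 of 19 and gained 1, *Thbs1* lost 12 of 14 and gained 4, and *Col1a2* lost 9 of 15 and gained 1, with kept promoters. *Col1a1*, the locus that carries the OKSM cassette, lost 10 of 12 assigned day 0 peaks. Its promoter window had a peak from day 0 to day 9, but not the same peaks throughout. Lost peaks, present on day 0 alone, lay 125 bp upstream (chr11:94935988-94936209) and 153 bp downstream of the TSS (chr11:94936265-94936489), and a peak 925 bp downstream (chr11:94936861-94937436) was gained and present from day 1 to day 9. A kept promoter is thus a window with some peak on both days, and among peaks at least 300 bp wide the *Col1a1* promoter was gained.

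Surface genes of fibroblasts lost the promoter peaks of *Pdgfrb*, the PDGF receptor beta, and *Itga5*, the integrin of fibronectin, out of 6. That is 33.3% (4.33 to 77.7), an interval that includes the 13.0% over all protein-coding genes. The *Pdgfrb* and *Itga5* promoters had a peak on days 0, 1, 2, 3 and 6 and none on day 9 or in ESCs. Of 55 assigned day 0 peaks of this list 40 were lost (72.7%, 59.0 to 83.9, an interval that includes the 62.2% over all genes), and 15 of 30 day 9 peaks were gained (50.0%, 31.3 to 68.7, against 31.5%). *Cd44* lost 10 and gained 3, *Nt5e* lost 7 and gained 5, and *Thy1* lost 4 and gained 2, with kept promoters. Of the 8 markers fixed for fibroblasts, 7 had a day 0 promoter peak (*Prrx1* had none in any library), 5 had one on day 9 and 2 in ESCs. Of 7 markers fixed for ESCs, 3 had a promoter peak on day 0, 1 had one on day 9, and 2 had one in the ESC library, *Pou5f1* and *Zfp42*, and *Sox2*, *Nanog*, *Esrrb*, *Tdgf1* and *Dppa4* had none there.

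The signalling and contractile lists stood near the values over all genes. For the TGF-beta pathway, 118 of 178 assigned day 0 peaks were lost (66.3%, 58.8 to 73.2) and 35 of 99 day 9 peaks were gained (35.4%). The ligand gene *Tgfb1* lost its promoter peak, which was open on days 0, 1 and 3, and both of its assigned day 0 peaks. The repressor gene *Tgif1* lost a promoter peak that was present on days 0, 1, 2, 3 and 6 and in ESCs. Among genes with kept promoters, the latent TGF-beta binding protein gene *Ltbp1* lost 21 of 26 assigned day 0 peaks and gained 6. The effector *Smad3* lost 19 of 25 and gained 3, and the inhibitor *Smad7* lost 11 of 17 and gained 5. For the contractile and YAP-TEAD genes 65 of 116 day 0 peaks were lost (56.0%, 46.5 to 65.2), 1 of 17 promoters was lost (the tropomyosin gene *Tpm2*), and the YAP target *Ccn2* lost 9 and gained 2.

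Among the AP-1 genes themselves, 1 of 10 day 0 promoter peaks was lost, against 13.0% over all protein-coding genes. It was that of *Fosl1*, which encodes FRA1 and was open on days 0, 1, 2, 3 and 6. The *Batf3* promoter had no peak on day 0 or in ESCs and had one from day 1 to day 9, and the gained peak at its TSS (chr1:191098439-191098691) was present on days 1, 3 and 9. Of 75 assigned day 0 peaks 42 were lost (56.0%, 44.1 to 67.5), and 7 of 43 day 9 peaks were gained (16.3%, 6.81 to 30.7). *Atf3* lost 9 of 12 assigned day 0 peaks, *Fos* 8 of 14, *Fosl2* 7 of 9 and *Jun* 6 of 10, and *Jun* gained 4.

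Markers of other cells that a MEF culture can hold were also among the losses. Of 10 macrophage markers, 7 had a day 0 promoter peak, and 6 of these were lost (85.7%, 42.1 to 99.6), against 13.0% over all protein-coding genes. The 6 were *Spi1*, which encodes the factor PU.1, and *Cd68*, *Itgam*, *Fcgr1*, *Lyz2* and *Tyrobp*. The *Spi1*, *Fcgr1* and *Tyrobp* promoters were open on day 0 alone, those of *Itgam* and *Lyz2* on days 0 and 1, and that of *Cd68* on days 0, 1, 3 and 6 and in ESCs. The number of the 10 promoters with a peak was 7 on day 0, 4 on day 1, 1 on day 2, 2 on days 3 and 6, and 1 on day 9, where *Csf1r* alone had one. Among peaks at least 300 bp wide, 3 macrophage promoters were lost. *Ptprc*, the pan-leukocyte gene for CD45, had no promoter peak in any library. Of 29 assigned day 0 peaks of this list 25 were lost (86.2%, 68.3 to 96.1). Of 6 endothelial markers with a day 0 promoter peak 3 lost it (50.0%, 11.8 to 88.2, an interval that includes 13.0%). They were *Pecam1*, *Cdh5* and *Esam*, each open on day 0 alone. Of 51 assigned day 0 peaks of the endothelial list 40 were lost (78.4%, 64.7 to 88.7). The muscle list lost 1 of 2 promoters (*Pax3*) and the neural list 0 of 2. Some day 0 peaks thus lay at promoters of macrophage and endothelial genes and were lost beside those of fibroblast genes, and the part of such cells in the lost class was not tested.

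Epithelial genes were the list with the largest gained share among those with at least 40 assigned day 9 peaks. Of 40 assigned day 9 peaks 26 were gained (65.0%, 48.3 to 79.4), and 25 of 39 day 0 peaks were lost (64.1%). None of 7 day 0 promoter peaks was lost (0 to 41.0%, an interval that includes the 13.0% over all protein-coding genes). Of 19 genes without one, 21.1% (6.05 to 45.6) gained one, against 3.69% over all protein-coding genes. *Cldn3*, *Esrp1* and *Ehf* were among them. The *Cldn3* promoter was open from day 1 to day 9 and in ESCs. *Ehf*, an epithelial ETS factor, was open at its promoter on days 2, 6 and 9, and *Esrp1*, an epithelial splicing regulator, on days 2, 3 and 9, where its gained TSS peak was present on day 9 alone. *Ehf* gained 6 peaks, of which that at chr2:103283549-103284082 (534 bp) covered a TSS. That TSS lies inside the gene, which spans chr2:103263433-103303278 on the minus strand. *Grhl2*, a Grainyhead-like factor of epithelia, gained 4 peaks with none at the promoter, 1 of them with an ESC peak (chr15:37192835-37193213). *Cdh1*, the gene for E-cadherin, gained a peak upstream (chr8:106599513-106600108) and one in an intron (chr8:106631588-106632162), both present from day 1 to day 9 and absent in ESCs, and its promoter had a peak in ESCs alone. The protease gene *St14* gained 4 peaks. Of the 26 gained peaks 7 had an ESC peak (26.9%, against 1639 of 9097 over all assigned gained peaks), and 11 were present on each of days 1, 2, 3 and 6.

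Pluripotency genes both gained and lost peaks. Of 63 assigned day 9 peaks 32 were gained (50.8%, 37.9 to 63.6), 11 of them with an ESC peak (34.4%), and of 93 day 0 peaks 62 were lost (66.7%). *Sall1*, *Lefty1* and *Nodal* gained a promoter peak, out of 19 genes without one on day 0. That is 15.8% (3.38 to 39.6), an interval that includes the 3.69% over all protein-coding genes without a day 0 promoter peak. The *Sall1* promoter, of a zinc finger factor, was open on days 1, 3, 6 and 9 and in ESCs. That of the Nodal inhibitor gene *Lefty1* was open from day 1 to day 9 and that of *Nodal* on day 9 alone, neither of them in ESCs. *Mycn* gained 5 peaks around a kept promoter, 1 of them with an ESC peak. A gained peak in an intron of *Gdf3* (chr6:122608328-122608901) was present from day 1 to day 9 and in ESCs, and one over an exon of *Fgf4* (chr7:144864211-144864619) was present from day 1 to day 9 and absent in ESCs. Of 19 day 0 promoter peaks 4 were lost (21.1%, 6.05 to 45.6, an interval that includes the 13.0% over all protein-coding genes). They were those of *Esrrb*, *Tdgf1*, *Dppa3* and *Dnmt3l*. Among peaks at least 300 bp wide, the *Esrrb*, *Tdgf1* and *Dppa3* promoters had none on day 0 or day 9. The *Esrrb* and *Dppa3* promoters were open on day 0 alone, that of *Dnmt3l* on days 0 and 1, and that of *Tdgf1* on days 0, 1, 2 and 3, and none of the 4 had an ESC promoter peak. *Esrrb* lost 6 assigned peaks and gained 1, and of those 6, 1 had an ESC peak (chr12:86305803-86306002).

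**Figure D4:**
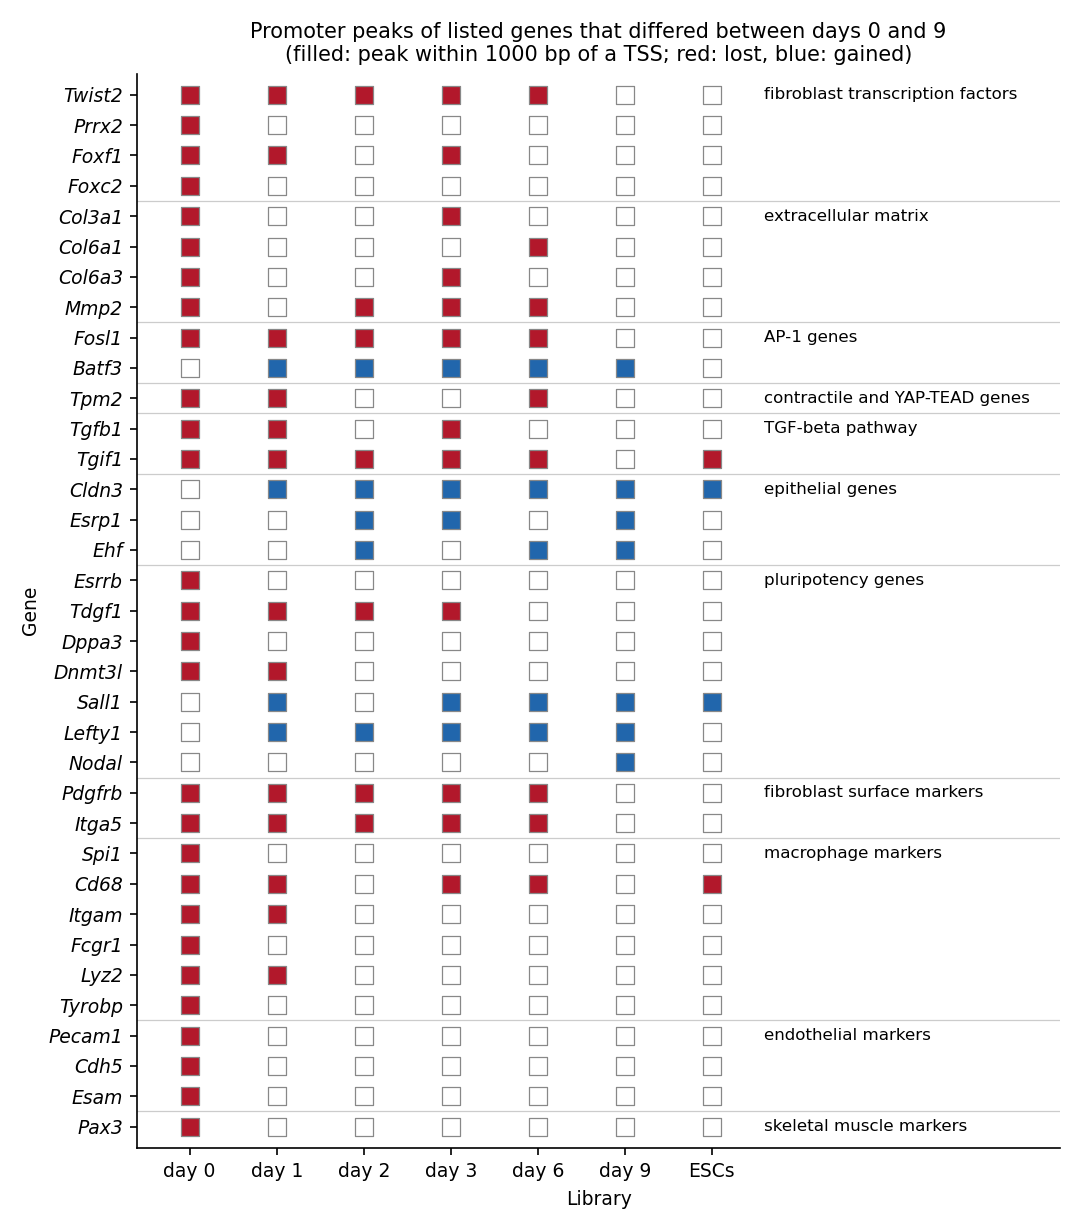
Promoter peaks, within 1000 bp of a TSS, in each of the 7 libraries for listed genes whose promoter state differed between day 0 and day 9, with filled squares for a peak, red for lost and blue for gained. The promoters of *Twist2*, *Fosl1*, *Pdgfrb* and *Itga5* had a peak on each day to day 6, while those of *Prrx2*, *Foxc2*, *Spi1*, *Tyrobp* and *Pecam1* had one on day 0 alone.

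**Figure D5:**
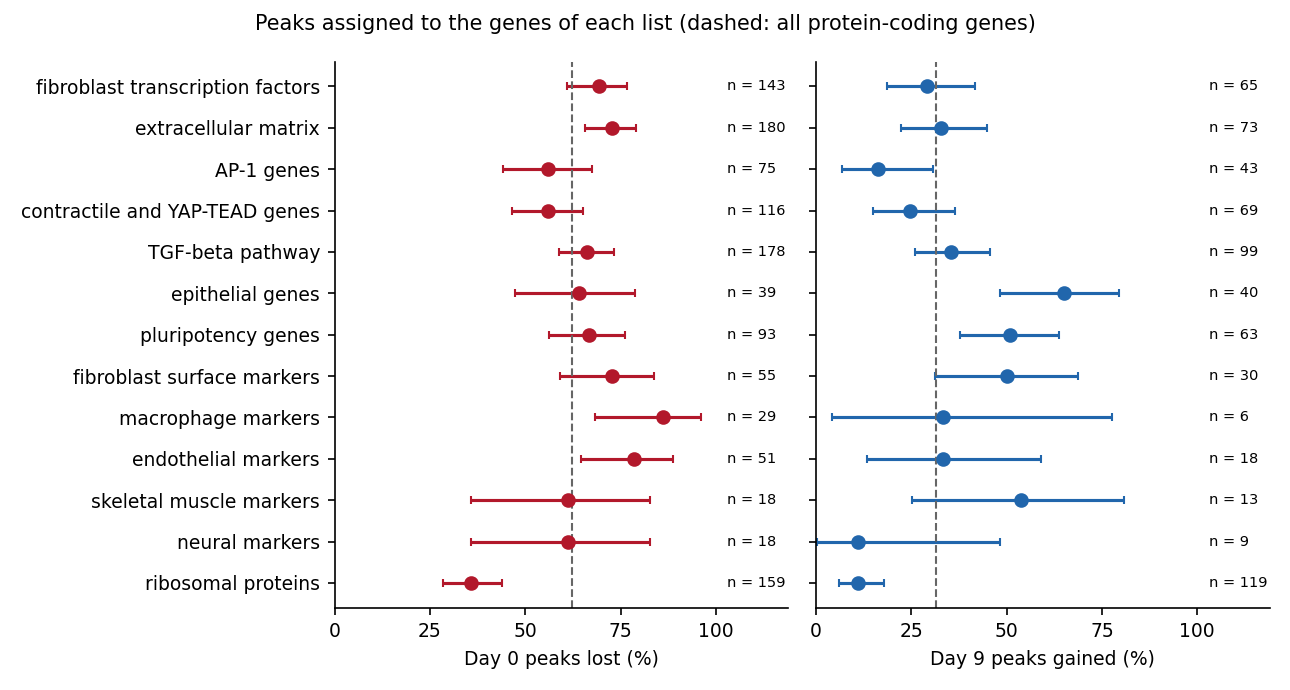
Share of assigned day 0 peaks that were lost (left) and of assigned day 9 peaks that were gained (right), in percent, for each gene list, with exact 95% intervals for counting error, the number of peaks at the right of each row and the value over all protein-coding genes as a dashed line (62.2% and 31.5%). Epithelial genes stood at 65.0% gained, pluripotency genes at 50.8% and ribosomal protein genes at 10.9%.

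By single genes, lost peaks were most numerous at long genes. *Pde4d*, a phosphodiesterase gene of 1504 kb, lost 36 of 49 assigned day 0 peaks, *Agap1* lost 25 of 28, *Rbms3*, an RNA-binding protein gene of 1057 kb, lost 23 of 24 and its promoter peak, *Foxp1* lost 22 of 27, and *Ltbp1* lost 21 of 26. Gained peaks were most numerous at *Zbtb20* (11), *Itpr2* (10) and *Frmd4a* (9), followed by 12 genes with 8 each. *Zbtb20*, a zinc finger repressor gene of 767 kb, also lost 11 peaks and its promoter peak.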

How the data were processed

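ATAC-seq was analysed in the day 0 and day 9 libraries, with the libraries of days 1, 2, 3 and 6 and of ESCs beside them, 1 library each, grouped by time-point. Per the paper's methods, the authors used Trimmomatic for trimming, Bowtie2 with mm10 for mapping, Picard to remove duplicates and MACS2 without a model to call peaks in each library, after bringing the libraries to a common depth that is not stated. The deposited files hold 3 columns with a chromosome and the bounds of a peak but no score, so depth and reads per peak are unknown. A weak site at the caller's threshold can thus appear as lost or gained.

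Overlaps of at least 1 bp were counted in Python 3.11.15 with numpy 2.4.6 and scipy 1.17.1. The counts equalled those of BEDTools 2.31.1, and the code was tested on simulated data. Positions count from 1. Genes and TSSs are those of the 21853 protein-coding genes of GENCODE M21. The 19 motifs were searched on both strands of the central 200 bp, read with pysam 0.24.0. Figures were drawn with matplotlib 3.10.9. Differences between shares carry normal-approximation 95% intervals, which cover counting error only, as peaks of 1 library are not replicates. No p-value was computed.

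The 12 gene lists, the motifs and the members were chosen with earlier results of these data known. Named were, per list, genes whose promoter state differed and then those with the most lost plus gained peaks, up to 8; the 5 genes with the most lost and the most gained peaks, with ties given as a count; the 3 widest lost and gained peaks; and 6 sequences by the rule given with them, none from chromosome 18. *Prrx1*, *Dppa4*, *Zfp42*, *Pou5f1*, *Sox2*, *Nanog*, *Fgf4*, *Gdf3*, *Mycn* and *Myc* stand outside this rule, as cell type markers or by choice after their values were seen. The alternatives were other overlaps, peak widths, list sizes, TSS distances, windows and gene distances. A gene that the rule names is not reported here. The authors' other experiments were not used here.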

Additional observations from a re-analysis of the deposited data

How the results depend on the processing

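With 1 library at each time-point, no replicate could be left out. No paired analysis was possible because no day has a second library to pair. Of 120 alternative values, 67 stayed within the interval of the value reported or, for counts, within 1.5 times of it, and 53 moved. The AP-1 and KLF differences kept their direction under each alternative tried, and the sizes of the values moved as follows. The share of day 0 peaks lost was 76.0% when the overlap had to span 50% of both peaks, 62.0% when a peak within 500 bp counted as shared, 61.5% with peaks at least 300 bp wide, 49.0% with the same number of widest peaks in both lists and 53.5% when a lost peak also had to be absent on day 6. The share of day 9 peaks gained was 55.5%, 31.3%, 31.6% and 45.6% under the first 4 of these and 24.9% when a gained peak also needed a peak on day 6 or in ESCs. The number of lost peaks moved to 21171 with wide peaks and to 16163 with equal numbers, and that of gained peaks to 18305 with the 50% overlap and 6154 with wide peaks. Lost peaks absent from ESCs stood at 96.7%, 95.3%, 95.6% and 95.0%, and gained peaks present in ESCs at 11.4%, 19.2%, 16.0% and 17.9%. An alternative added after the data were seen took the 27074 widest peaks of day 0 and of day 9, the number of ESC peaks. It gave 12469 lost peaks (46.1%), 43.8% of day 9 peaks gained, 93.8% of lost peaks absent from ESCs and 21.4% of gained peaks present there. Within 2500 bp of a TSS lay 12.0% of lost and 11.3% of gained peaks. The AP-1 difference, lost minus gained, was 8.97 points in 100 bp windows, 15.2 in distal peaks and 31.7 with equal numbers, and the KLF difference -3.26 in 100 bp windows and -5.47 with equal numbers. With equal numbers, day 0 peaks of 323 bp and over were set against day 9 peaks of all widths. The unknown depth limits what an absent peak means.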
